A study of Mus musculus with 96 samples.

Results

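Broad H3K4me3 domains are the wide end of the H3K4me3 peak list of mouse embryonic stem cells (ESCs). A domain was an interval of the Rybp+/+ list that spanned 4000 bp or more, and 2079 of 39050 intervals (5.32%) met this rule. Their width in Rybp+/+ cells was the value they were selected on, and every statement on that width is a description with no test. The Rybp+/+ and Rybp-/- lists both came from Rybp-floxed ESCs, and Rybp-/- cells were made by 5 µM 4-hydroxytamoxifen (4-OHT) for 4 days. The controls did not receive that treatment, so loss of RYBP and exposure to 4-OHT cannot be told apart. For each antibody and genotype the 2 ChIP replicates (1 for STAT3) are covered by 1 peak list, which leaves no replicate spread and no test between genotypes, and the depth behind each list is unknown. RING1B was mapped in another ESC line, R1, carrying an empty shRNA vector (shEV, 1 library) or an shRNA to Stat3 (shStat3, 1 library). RING1B and STAT3 were also mapped in R1 cells with doxycycline-inducible Rybp and Stat3 (Tet.Rybp.Stat3), with 2 replicates and 1 list each without (DOX-) and with (DOX+) doxycycline. RNA was measured in 2 libraries per group. The groups were Rybp+/+ and Rybp-/- ESCs of the floxed line, and shEV, shRybp and shWdr5 ESCs of the R1 line. A doxycycline-inducible line (rTRS, labelled for Rybp and Stat3) was measured without (NTC) and with doxycycline (DOX).

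H3K4me3 is laid down at active and poised promoters by SET1/MLL methyltransferases, whose shared core includes WDR5. Most promoters carry a narrow peak beside the transcription start site (TSS), whereas genes of cell identity and some developmental regulators carry the mark over a long stretch. RYBP and RING1B are subunits of non-canonical Polycomb repressive complex 1 (PRC1), which is known for silencing developmental genes at bivalent, CpG-rich promoters in ESCs, and H3K27ac marks active promoters and enhancers.

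The RNA tables held 75496499 to 81049618 counts on genes per library for the knockout, 38961268 to 52303725 for shRybp, 19731613 to 21500931 for shWdr5 and 50312058 to 53779354 for rTRS. The targeted genes are both at broad domains. Rybp was at 110.4 and 110.6 CPM (counts scaled to the effective library size of each library) in Rybp+/+ and 24.8 and 24.9 CPM in Rybp-/- ESCs, and at 85.7 and 86.3 CPM in shEV and 35.8 and 36.5 CPM in shRybp ESCs. Wdr5 was at 350.3 and 342.3 CPM in shEV and 59.9 and 58.1 CPM in shWdr5 ESCs. In the libraries labelled DOX, Rybp (113.5 and 110.3 CPM in NTC, 102.0 and 99.5 CPM in DOX) was not higher, which goes against the label. ESC markers summed to between 3469 and 7147 CPM in every library, and all 7 were detected. Fibroblast markers rose from at most 56.8 CPM to at least 112.8 CPM in Rybp-/- ESCs (5 of 6 genes higher in edgeR), and primitive endoderm markers were at most 30.9 CPM in any library. The labels do not say that replicates were separate cultures, so p-values cover only the spread between these libraries.

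The 300 bases upstream of the start site nearest the strongest WDR5 summit are shown for 5 wide domains, to show the DNA that WDR5 peaks lie near. RING1B covers little or none of the domains at Esrrb, Lasp1 and Mtf2, part of that at Spry2 and most of that at Tnrc18. They were taken from the widest domains of the RING1B classes and gene lists described below, among those with the start of a single gene, a WDR5 peak and a window free of annotated exons. All coordinates are mm9, each sequence is written 5′ to 3′ on the strand of its gene, and capitals mark every CG dinucleotide, the DNA feature that both H3K4me3 and PRC1 are known to follow. Esrrb, a pluripotency factor in the widest domain (chr12:87810767-87811066, plus strand), has 9 CG dinucleotides. Lasp1, an actin-binding protein in a domain of 12158 bp without RING1B (chr11:97660579-97660878, plus strand), has 26. Mtf2, a PRC2 subunit in a domain of 10278 bp without RING1B (chr5:108494393-108494692, plus strand), has 23. Spry2, a feedback inhibitor of receptor tyrosine kinase signalling (chr14:106296037-106296336, minus strand, 17.8% of the domain under RING1B), has 32. Tnrc18 (chr5:143579342-143579641, minus strand, 94.6% under RING1B) has 22.
Esrrb: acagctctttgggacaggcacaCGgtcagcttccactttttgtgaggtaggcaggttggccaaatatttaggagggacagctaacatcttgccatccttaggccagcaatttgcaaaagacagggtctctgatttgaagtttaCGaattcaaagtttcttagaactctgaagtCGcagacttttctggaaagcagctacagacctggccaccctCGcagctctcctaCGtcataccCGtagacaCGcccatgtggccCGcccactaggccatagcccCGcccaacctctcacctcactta
Lasp1: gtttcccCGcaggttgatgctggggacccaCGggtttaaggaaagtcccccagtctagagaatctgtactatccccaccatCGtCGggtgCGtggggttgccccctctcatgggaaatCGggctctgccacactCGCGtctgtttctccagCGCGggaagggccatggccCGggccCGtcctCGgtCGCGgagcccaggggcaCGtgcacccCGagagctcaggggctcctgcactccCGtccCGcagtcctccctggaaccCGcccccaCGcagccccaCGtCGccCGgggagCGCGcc
Mtf2: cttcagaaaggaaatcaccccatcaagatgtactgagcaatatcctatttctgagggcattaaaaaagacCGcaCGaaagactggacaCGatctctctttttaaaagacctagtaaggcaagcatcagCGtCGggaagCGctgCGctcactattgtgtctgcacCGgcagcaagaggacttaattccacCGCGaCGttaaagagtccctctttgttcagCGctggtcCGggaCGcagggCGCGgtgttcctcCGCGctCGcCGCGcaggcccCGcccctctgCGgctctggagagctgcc
Spry2: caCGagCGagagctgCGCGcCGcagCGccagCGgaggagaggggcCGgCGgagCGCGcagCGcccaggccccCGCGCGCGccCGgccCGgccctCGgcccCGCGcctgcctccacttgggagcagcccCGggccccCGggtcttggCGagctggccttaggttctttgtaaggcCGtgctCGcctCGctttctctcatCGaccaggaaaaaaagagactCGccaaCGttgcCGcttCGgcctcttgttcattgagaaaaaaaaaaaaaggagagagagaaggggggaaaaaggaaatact
Tnrc18: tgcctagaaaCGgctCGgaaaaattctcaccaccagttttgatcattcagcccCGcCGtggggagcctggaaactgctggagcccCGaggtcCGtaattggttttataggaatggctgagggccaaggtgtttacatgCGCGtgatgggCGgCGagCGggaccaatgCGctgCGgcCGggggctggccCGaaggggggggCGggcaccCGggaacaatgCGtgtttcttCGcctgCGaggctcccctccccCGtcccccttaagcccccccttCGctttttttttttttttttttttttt
Over the 2293 protein-coding genes with a TSS in a broad domain, the same window before the most upstream start site held a median of 21 CG dinucleotides (CG read on 1 strand, which gives the same count on the other), and 84.6% of genes had 10 or more. Of all 22380 protein-coding genes 49.6% had 10 or more, with a median of 9. Genes with a narrower H3K4me3 interval had a median of 15 and genes with none a median of 2. Across the whole interval the median ratio of observed to expected CpG was 0.531 in broad domains and 0.490 in those of 6 kb or more. It was 0.560 in intervals of 2 to 4 kb, 0.443 at 1 to 2 kb and 0.376 under 1 kb, so broad domains lay below the class next to them in width and above the narrower ones. Among broad domains it was 0.623 in those that RING1B covered for 50% or more and 0.442 in those without RING1B.

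Domain widths ranged from 4002 to 18321 bp with a median of 4895 bp, and 471 domains reached 6 kb and 34 reached 10 kb. Together they held 11.2 Mb, or 18.9% of all bases under H3K4me3. Their median fold enrichment over background was 43.0 (6.05 to 88.0), against 7.53 over all intervals. At the edge of the rule, Cd63 (4002 bp), an interval within the body of Klf16 (4003 bp) and Rad51l1/Zfyve26 (4004 bp) lay just inside, and H2-Ke2/Wdr46 (3999 bp), Zbtb43 (3997 bp) and Gm13663/Itga6 (3997 bp) lay just outside. These neighbours overlapped in enrichment as well, from 12.6 to 35.1 fold inside and from 13.8 to 63.4 fold outside, so the 4 kb line cuts a continuous range of widths.

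**Figure D1:**
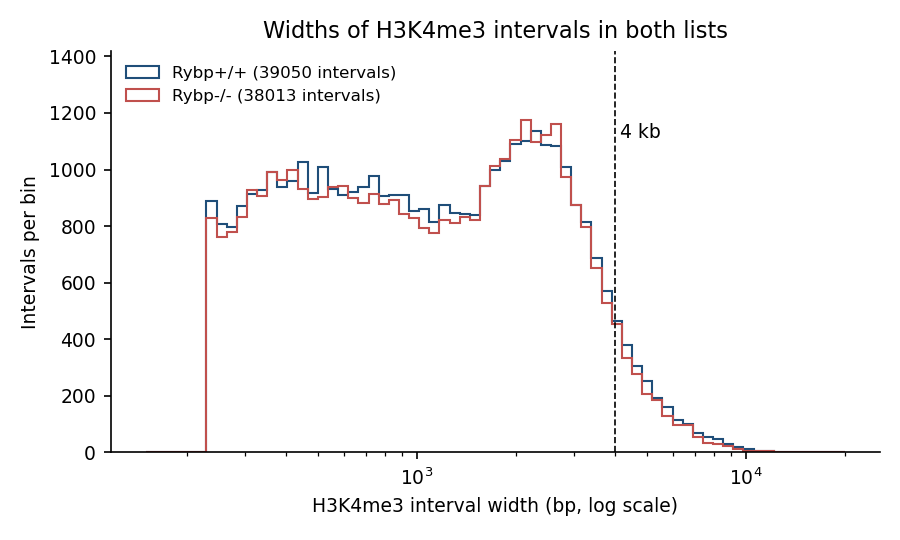
Widths of all H3K4me3 intervals (bp, log scale) against the number of intervals per bin, for Rybp+/+ (39050 intervals) and Rybp-/- (38013 intervals) ESCs, with a dashed line at 4 kb. Right of the line lie 2079 Rybp+/+ and 1798 Rybp-/- intervals.

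The widest domain lay at Esrrb (chr12:87807106-87825426, 18321 bp), where 97.6% of bases were intron and 100% lay under H3K27ac. Smad7, an inhibitor of TGF-β signalling, followed on chromosome 18 with 17920 bp. Next came the domain at Ctbp2 (chr7:140300955-140317472, 16518 bp), in which an annotated transcript of Fgfr2 also starts. It was followed by the domain shared by Ndufa4l2, Shmt2 and Stac3 (chr10:126944107-126959837, 15731 bp). The rest of the 12 widest lay at Zbtb7a (15346 bp), the glucose transporter Slc2a1 (15320 bp), the Krüppel-like factor Klf3 (14693 bp), Phf17 (14515 bp), Klf9 (14430 bp), 2310003C23Rik/Dido1 (13703 bp), 8430406I07Rik/Snx5 (13458 bp) and Mllt6 (13276 bp). Each of the 12 held between 1 and 4 WDR5 peaks, and RING1B covered between 2.02% (Esrrb) and 29.3% (Zbtb7a) of them. H3K27ac covered 89.2 to 100% of 11 of the 12, and the exception was the Ndufa4l2/Shmt2/Stac3 domain at 25.1%.

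Most broad domains were promoter domains that ran into the gene. A TSS of any annotated gene lay in 1944 domains (93.5%) and a protein-coding TSS in 1899 (91.3%), and 400 (19.2%) held start sites of at least 2 coding genes. Of all protein-coding genes 10.25% (2293 of 22380) had a TSS in a broad domain, and of those with any H3K4me3 interval at a TSS 16.25%. In the 1218 domains with a single gene, the mark reached a median of 1328.5 bp upstream and 3582.5 bp downstream of the most upstream start site, and 89.9% extended further downstream. Introns made up 55.2% of the bases, exons 22.8% and intergenic sequence 22.0%. The most upstream site was used where a gene has several, which lengthens the downstream side.

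A group of 135 domains held no annotated start site, and 72 of these lay inside a protein-coding gene body. H3K27ac overlapped 83.0% of them, WDR5 48.1% and RING1B 43.7%, lower than the 90.7%, 87.7% and 72.4% of all broad domains. They included a domain of 10453 bp near the butyrophilin gene Btn2a2 (chr13:23589305-23599757) and one of 8220 bp within Apobec3 (chr15:79730350-79738569). Broad domains made up between 3.96% (chromosome X) and 6.69% (chromosome 11) of the intervals of each autosome and the X, and none of the 6 intervals on Y was broad.

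Pluripotency genes were often at broad domains. Of 24 listed pluripotency genes 19 (79.2%) had a TSS in one, with a median width of 6418 bp. Wide domains after Esrrb lay at Sox2 (10560 bp), Tbx3 (9288 bp) and Nr5a2 (8450 bp), all transcription factors of the ESC network. Broad domains also covered 14 of 25 genes of LIF, BMP, WNT and FGF feedback, led by Smad7, Spry2 (9637 bp), Spry4 (9492 bp), Socs3 (7597 bp) and Smad6 (7209 bp). Among chromatin regulators 26 of 45 matched genes were included, led by Setd1b (11080 bp), a catalytic subunit of a WDR5-containing H3K4 methyltransferase, Mtf2 (10278 bp), the PRC1 subunits Phc1 (10163 bp) and Pcgf2 (9936 bp) and the PRC2 cofactor Jarid2 (9085 bp). Growth and cell cycle genes gave 9 of 17, with Trp53 (8731 bp), Ccnd2 (7440 bp), Mycn (7271 bp), Ccnd1 (7117 bp) and Myc (6377 bp). Developmental transcription factor families gave 55 of 182 (30.2%), such as Dlx2 (8859 bp) and Meis2 (8494 bp). These lists were drawn up with results of these data known, so the counts describe the domains and carry no test.

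H3K27ac overlapped 90.7% of broad domains (95% Wilson interval 89.3 to 91.8, counting error only), WDR5 87.7% (86.2 to 89.0), RING1B of shEV cells 72.4% (70.4 to 74.3) and STAT3 16.7% (15.2 to 18.4). Over all H3K4me3 intervals the shares were 52.6%, 27.2%, 36.2% and 4.84%. A wide interval has more room for a peak, so the central 1 kb was also searched. There H3K27ac was at 86.5% of broad domains, WDR5 at 55.9%, RING1B at 49.1% and STAT3 at 7.79%, whereas intervals of 2 to 4 kb had WDR5 at the centre in 66.9% and RING1B in 65.5%. WDR5 and RING1B were therefore less often central in broad domains than in intervals of 2 to 4 kb, while H3K27ac filled them, with a median of 87.3% of a domain under H3K27ac, 19.3% under WDR5 and 15.9% under RING1B.

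**Figure D2:**
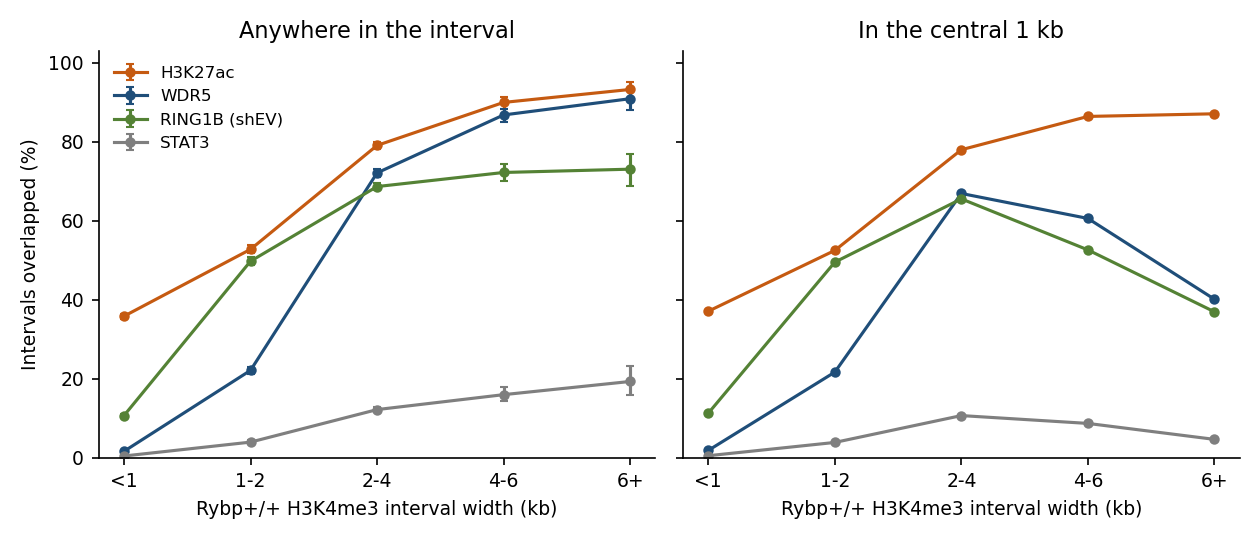
Share of Rybp+/+ H3K4me3 intervals (%) overlapped by H3K27ac, WDR5, RING1B (shEV) and STAT3 peaks by interval width (kb), anywhere in the interval (left, bars are 95% Wilson intervals) and in its central 1 kb (right). Anywhere in the interval, H3K27ac and WDR5 were found in 93.2% and 90.9% of domains of 6 kb or more. At the centre WDR5 was found in 40.1% and RING1B in 36.9% of that class.

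No broad domain lacked all 3 of H3K27ac, WDR5 and RING1B. All 3 were present in 1248 domains, H3K27ac with WDR5 but no RING1B in 451, WDR5 with RING1B but no H3K27ac in 124, H3K27ac alone in 123, RING1B alone in 70 and H3K27ac with RING1B in 63. WDR5 gave 1 peak in 1318 domains, 2 in 402, 3 in 77 and 4 or more in 26, with a maximum of 6 at Mycn, a MYC family growth regulator. Median width went from 4707.5 bp in the 256 domains without WDR5 to 7782.5 bp in those with 4 or more peaks. In the single-gene domains the 1454 WDR5 peaks lay a median of 210 bp from the start site, and 87.6% were within 1 kb. In the other RING1B lists the share of broad domains was 66.7% (shStat3), 87.2% (Tet.Rybp.Stat3 DOX-) and 67.0% (Tet.Rybp.Stat3 DOX+), and for STAT3 it was 23.4% in DOX- and 91.9% in DOX+ cells of that line. The DOX+ STAT3 list also held far more peaks than the DOX- list (30663 against 2816) and overlapped 48.0% of all H3K4me3 intervals. Whether these shares follow the length of each list was not tested.

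RING1B separated the domains into 3 classes, whose boundary at 50% of the domain was set after the data were seen. RING1B covered 50% or more of 432 domains (20.8%), part of 1073 (51.6%) and none of 574 (27.6%). The last count depends on the list, since 1222 domains had no RING1B when a −log10 q of at least 5 was required and 266 had none in the Tet.Rybp.Stat3 DOX- list, both alternatives chosen after the data were seen. H3K27ac overlapped 55.6% of the mostly covered domains, 99.8% of the partly covered and 100% of the uncovered ones, and STAT3 overlapped 27.3%, 16.0% and 10.1%. WDR5 was present in 79.6%, 95.8% and 78.6%. Of the 55 developmental transcription factors at broad domains 48 were in the mostly covered class, against 3 of the 19 pluripotency genes. Median widths were close, at 4817.5, 4928 and 4920 bp. RNA in the Rybp+/+ libraries, per kilobase of gene length, had a median of 1.35 RPKM at genes of the mostly covered domains and 26.0 RPKM at genes without RING1B.

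Every broad domain was overlapped by an interval of the Rybp-/- list (2079 of 2079, 95% Wilson interval 99.8 to 100%), and the widest overlapping interval was 4 kb or more for 1574 (75.7%, 73.8 to 77.5). The median ratio of Rybp-/- to Rybp+/+ width was 0.947 (quartiles 0.863 to 0.998), with 1572 domains narrower (75.6%) and 507 wider. Of the intervals with an overlap in the Rybp-/- list, 60.1% of those of 2 to 4 kb and 53.5% of those of 1 to 2 kb were narrower, and the whole H3K4me3 list covered 59.2 Mb in Rybp+/+ and 56.8 Mb in Rybp-/- (96.0%). Intervals picked for being wide in 1 list can be narrower in any other, so the reverse selection is given beside this. Of the 1798 Rybp-/- intervals of 4 kb or more, 1577 (87.7%) were 4 kb or more in Rybp+/+, and their median ratio of Rybp+/+ to Rybp-/- width was 1.018. Of these, 723 (40.2%) were narrower in Rybp+/+ cells and 1075 wider. With 1 list per genotype this difference has no replicate check, and it was not tested against the depth of the lists.

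Narrowing was mostly slight. The ratio was under 0.75 in 241 domains, under 0.5 in 49 and over 1.5 in 15. A median of 94.6% of a domain's bases stayed under H3K4me3 in the Rybp-/- list, and only 2 domains fell below 50%. The domain was found as 1 piece in 1620 cases, as 2 in 387 and as 3 or more in 72, so part of the loss of width is a split at a gap. Of the 505 domains that fell below 4 kb, with a median of 4286 bp before and 3625 bp after, 424 were still 3 kb or more. Joining intervals within 500 bp of each other left 77.5% at 4 kb or more and a ratio of 0.949. In single-gene domains the edge was pulled in by over 500 bp at 282 downstream ends and 87 upstream ends.

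The width ratio differed between RING1B classes and between width classes. The median ratio was 0.994 where RING1B covered 50% or more, 0.939 where it covered less and 0.921 where it was absent, and 52.1%, 79.8% and 85.5% of these domains were narrower. The ratio was 0.950 for domains of 4 to 6 kb, 0.934 for those of 6 kb or more and 0.972 for intervals of 2 to 4 kb. Domains without a TSS had a ratio of 0.907. All 19 pluripotency domains were 4 kb or more in the Rybp-/- list, 11 were narrower, and their median ratio was 0.996 (Esrrb 17672 bp, Sox2 10171 bp, Tbx3 8994 bp and Nr5a2 8830 bp). Developmental transcription factors had a median ratio of 1.005, with 23 of 55 narrower and 49 at 4 kb or more in Rybp-/- (Dlx2 4983 bp), while signalling feedback genes had 0.948, chromatin regulators 0.952 and growth genes 0.936. Of all domains of 5 kb or more, 91.1% stayed at 4 kb or more.

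**Figure D3:**
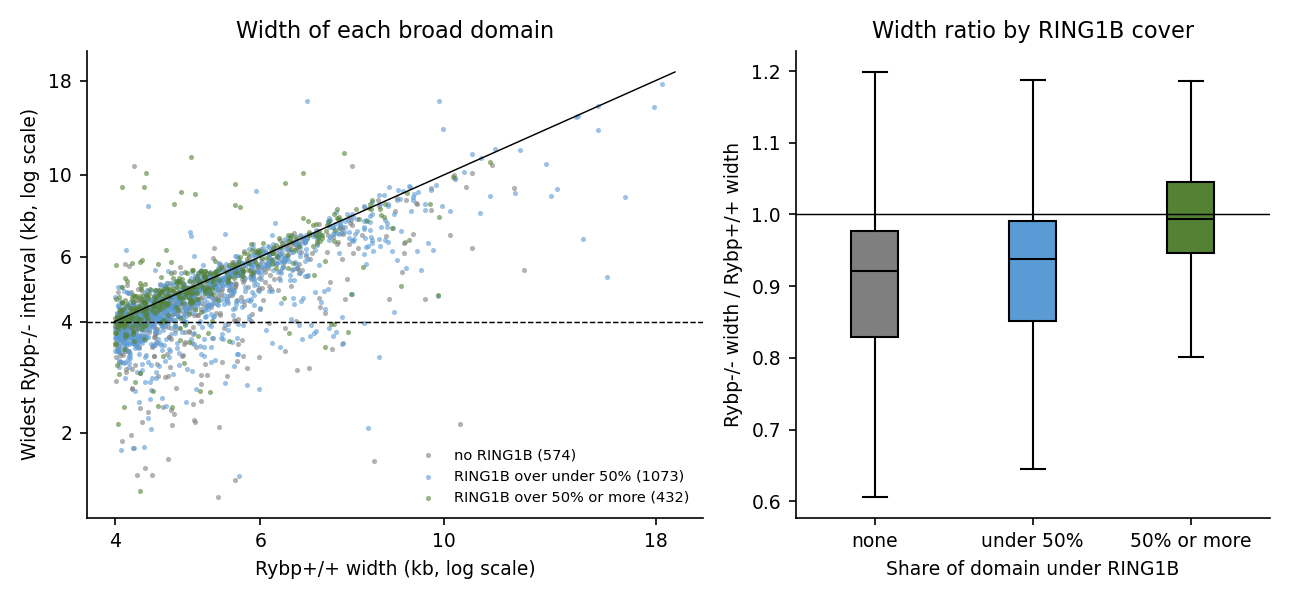
Width of each of the 2079 broad domains in Rybp+/+ and of its widest Rybp-/- interval (kb, log scales, left), and the ratio of the widths by the share of the domain under RING1B (right). Points below the diagonal or the line at 1 were narrower in Rybp-/-, and the median is 0.921 without RING1B and 0.994 where RING1B covers 50% or more.

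Among the 12 widest, 5 were more than 4000 bp narrower in Rybp-/-. The Ctbp2/Fgfr2 domain went from 16518 to 8702 bp, Ndufa4l2/Shmt2/Stac3 from 15731 to 5269 bp, Klf3 from 14693 to 6678 bp, 2310003C23Rik/Dido1 from 13703 to 9130 bp and 8430406I07Rik/Snx5 from 13458 to 8760 bp. H3K4me3 was still called over 81.3 to 96.8% of the bases of these 5 domains, in 2 to 6 pieces. Zbtb7a (15346 to 15410 bp), Phf17 (14515 to 14469 bp) and Klf9 (14430 to 14307 bp) kept their width. The lowest ratios were at the domain near Btn2a2 (10453 to 2112 bp, in 8 pieces), within Apobec3 (8220 to 1672 bp), within Arhgap26 (5336 to 1341 bp), at Gm17422 (8101 to 2060 bp) and at Nfic (5590 to 1490 bp), and RING1B covered at most 7.25% of any of them. The highest were within Mkrn1 (4220 to 10550 bp), within Hnrnpf (6832 to 15890 bp), near Dmrta2 (4367 to 10084 bp), at 1600029O15Rik/Islr2 (4082 to 9280 bp) and at Cilp2/Yjefn3 (4942 to 11166 bp). RING1B covered none of the domain within Mkrn1, 6.78% of that within Hnrnpf and 100%, 89.7% and 98.1% of the last 3.

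The cover of broad domains by H3K27ac, WDR5 and STAT3 was summed in each genotype and set beside that of the whole lists. Bases of broad domains under H3K27ac were 8.29 Mb in Rybp+/+ and 7.88 Mb in Rybp-/- (95.1%), against 95.2% for the whole H3K27ac list. WDR5 covered 2.15 and 2.17 Mb (101%, whole list 110%) and STAT3 0.170 and 0.137 Mb (80.6%, whole list 76.5%). The median share of a domain under H3K27ac was 87.3% in Rybp+/+ and 79.1% in Rybp-/-, with less cover in 1194 domains and more in 532. STAT3 peaks were found only in Rybp+/+ at 234 domains and only in Rybp-/- at 186. The same count was not made over all H3K4me3 intervals, so it is not read as particular to broad domains. STAT3 overlapped 16.7% of broad domains in Rybp+/+ and 14.4% in Rybp-/-, against 4.84% and 3.94% of all H3K4me3 intervals. Each of these values rests on 1 list per genotype.

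Genes at broad domains were highly expressed. The median RNA level in Rybp+/+ libraries was 20.7 RPKM at domains of 6 kb or more, 14.3 RPKM at 4 to 6 kb, 6.56 RPKM at intervals of 2 to 4 kb and 1.12 RPKM at narrower ones. Of the 2775 genes with a TSS in a broad domain, 2361 to 2433 passed the filter on low counts, depending on the table. Changes were called by edgeR's quasi-likelihood test when the p-value adjusted for all genes of a table was under 0.05. In bulk RNA, fewer cells of a type and less RNA per cell cannot be told apart.

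In Rybp-/- ESCs, 584 of 2433 tested genes at broad domains (24.0%) were higher and 732 (30.1%) lower, where 22.8% and 22.7% of all genes tested were called in these directions. The median log2 fold change was -0.03 (all genes 0.00). The share lower was also 29.0% at intervals of 2 to 4 kb, and among the most expressed 25% of genes, a split added after the data were seen, it was 35.4% at broad domains and 37.7% elsewhere. With an absolute log2 fold change above 1 the direction turned, with 42 higher (1.73%) and 26 lower (1.07%), where 6.6% and 1.24% of all genes tested were called. At domains mostly under RING1B 33.7% were higher and 22.4% lower, and without RING1B 21.0% and 29.6%. The former genes were expressed at a lower level, and among genes in the second lowest 25% by mean level 38.2% of them were higher and 20.0% lower, against 28.7% and 16.2% of genes not at a broad domain. In the lowest 25% the shares higher were 16.3% and 17.2%. In the third 25% 38.8% of the genes mostly under RING1B were higher and 37.5% lower, and in the highest 25% 40.7% and 37.3%. For genes not at a broad domain these were 22.3% and 33.2%, and 22.6% and 37.7%.

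Otx2, a factor of the primed state and forebrain, was at 40.3 and 37.5 CPM in Rybp+/+ and 10.8 and 11.5 CPM in Rybp-/- ESCs. The groups did not overlap, and the log2 fold change was -1.79 (SE 0.07, edgeR adjusted p 2.2e-20), while its domain was 4193 bp in Rybp+/+ and 5758 bp in Rybp-/-. Lef1, a transcription factor of WNT signalling, went from 32.7 and 30.3 CPM to 8.55 and 10.0 CPM (log2 fold change -1.75, SE 0.08, edgeR adjusted p 1.1e-18). The endocytic receptor gene Lrp2 (23.5 and 23.6 to 7.85 and 8.25 CPM) and Myb (16.1 and 14.9 to 5.56 and 5.21 CPM) also fell. These 4 domains were all mostly under RING1B and kept ratios between 0.931 and 1.37, so the transcripts fell without a like change in the width of the mark. With Rybp itself (log2 fold change -2.15, adjusted p 8.1e-27) they are the 5 largest falls at a mean of at least 5 CPM, the minimum that also holds for the rises and falls named from here on. The mean is over both groups, so a gene that is low in 1 group can pass it through the group where it is high. In shRybp ESCs, of the R1 line, Lef1 and Lrp2 were higher (log2 fold change 0.67 and 0.48, edgeR adjusted p 5.0e-05 and 8.0e-07). Otx2 and Myb were not called there (log2 fold change -0.17 and -0.55, edgeR adjusted p 0.070 and 0.17).

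Among the rises, Pcdh7, a protocadherin, was at 2.99 and 3.11 CPM in Rybp+/+ and 9.21 and 8.79 CPM in Rybp-/- ESCs (log2 fold change 1.57, SE 0.12, edgeR adjusted p 2.3e-12). Id1, a BMP target that blocks basic helix-loop-helix factors, went from 5.19 and 5.82 CPM to 17.4 and 15.1 CPM (log2 fold change 1.56, SE 0.10, adjusted p 1.1e-14). Cd37 (3.08 and 3.15 to 8.42 and 9.15 CPM), Nab2 (6.20 and 6.09 to 15.8 and 17.0 CPM) and the mesenchymal factor Prrx1 (5.39 and 6.16 to 13.1 and 14.7 CPM) rose as well. In shRybp ESCs Id1 and Cd37 were also higher (log2 fold change 0.94 and 0.32), while Nab2 was lower (-0.48). Pcdh7 and Prrx1 were too low there to be tested. Prrx1 was at or near 0 in every shEV, shRybp, shWdr5 and rTRS library, at most 0.373 CPM. Fibroblast markers (Col1a1 and 5 others) rose in the same Rybp-/- libraries, and primitive endoderm markers summed to between 4.52 and 5.43 CPM in Rybp+/+ and between 9.32 and 9.33 CPM in Rybp-/- (2 of 5 tested higher, 1 of the 6 at 0), and their part in these rises was not tested.

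Among the lists, 7 of 19 pluripotency genes at broad domains were higher and 6 lower in Rybp-/- ESCs, where 22.8% and 22.7% of all genes tested were called. Tbx3 was at 157.8 and 166.3 CPM and rose to 276.7 and 275.2 CPM (log2 fold change 0.77, adjusted p 7.3e-19), while Esrrb (1047 and 1084 to 1124 and 1129 CPM) rose by only 0.09 on the log2 scale. Of 14 signalling feedback genes 8 were higher and 3 lower, with Spry4 at 53.1 and 54.4 CPM before and 91.1 and 104.9 CPM after. Chromatin regulators gave 9 higher and 10 lower of 26 (the deleted Rybp among the latter), growth genes 5 and 4 of 9, and developmental factors 7 and 12 of the 40 tested. Mycn fell from 224.5 and 232.0 CPM to 140.3 and 139.4 CPM (log2 fold change -0.70, adjusted p 1.3e-17).

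Knockdown, in the R1 line and not the floxed line, gave a different balance. The line and the way RYBP was depleted cannot be told apart here. In shRybp ESCs 503 of 2425 tested genes at broad domains (20.7%) were higher and 1096 (45.2%) lower, against 26.8% and 26.0% of all genes tested. With an absolute log2 fold change above 1 the direction turned, with 137 higher (5.65%) and 44 lower (1.81%), where 11.4% and 1.22% of all genes tested were called. The median log2 fold change was -0.14 (all genes 0.02). Among the most expressed 25% of genes, 63.7% of those at broad domains and 53.9% of the others were lower, so much of the background at this level is lower too. The share lower was 49.8% at domains of 6 kb or more, 43.8% at 4 to 6 kb and 29.7% at intervals of 2 to 4 kb. Genes of domains mostly under RING1B were higher in 46.1% and lower in 18.8%, against 13.8% and 51.9% without RING1B, but low levels go with rises here. Among genes in the second lowest 25% by mean level, 58.5% of the genes mostly under RING1B were higher and 9.86% lower, against 39.1% and 13.2% of genes not at a broad domain. In the highest 25% these shares were 31.9% and 52.2%, against 17.5% and 53.9%. These splits by level were added after the data were seen.

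**Figure D4:**
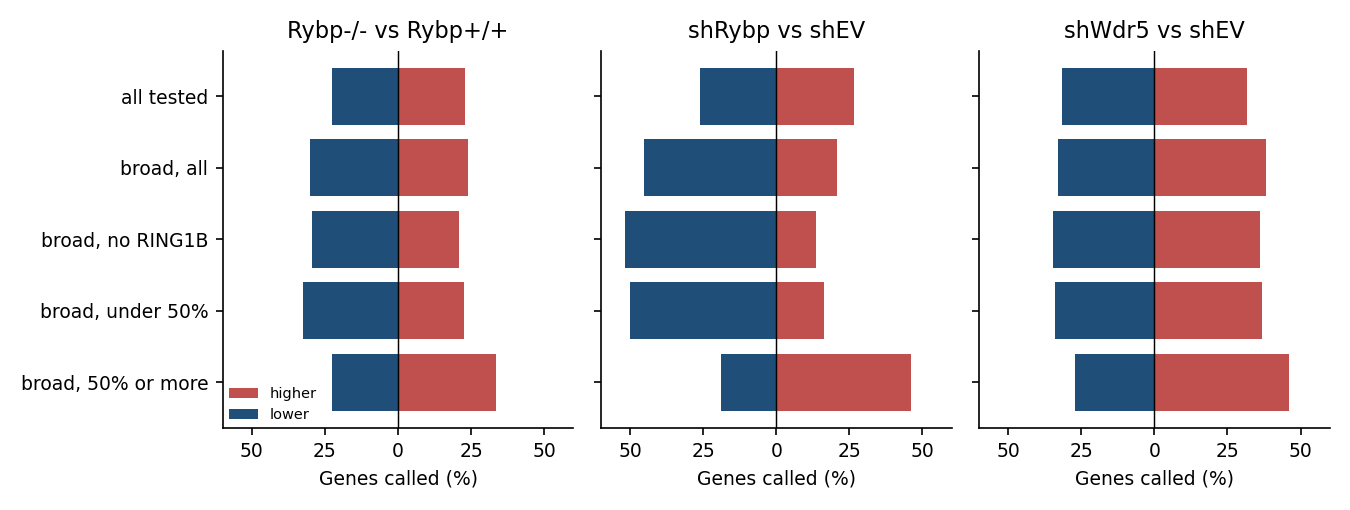
Share of tested genes (%) called higher (right) and lower (left) by edgeR at adjusted p under 0.05, in Rybp-/-, shRybp and shWdr5 ESCs. Bars are for all genes, genes at broad domains, and the RING1B classes of these domains. In shRybp 45.2% of genes at broad domains were lower, against 26.0% of all genes. Genes of domains mostly under RING1B were more often higher than lower in each comparison shown.

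The 5 largest rises above that mean in shRybp ESCs were at Wnt7b, Igf2, Nrp2, Cyr61 and Jun, whose domains were mostly under RING1B. Wnt7b and Igf2 were under 5 CPM in both shEV libraries and passed the minimum through shRybp. Wnt7b, a WNT ligand, was at 2.07 and 2.04 CPM in shEV and 17.2 and 21.9 CPM in shRybp ESCs (log2 fold change 3.24, SE 0.16, edgeR adjusted p 5.3e-12). The growth factor gene Igf2 went from 4.38 and 4.78 CPM to 36.6 and 33.4 CPM (log2 fold change 2.94, adjusted p 1.2e-13). The semaphorin and VEGF co-receptor Nrp2 (8.02 and 8.50 to 53.8 and 58.9 CPM), the matricellular gene Cyr61 (16.7 and 15.0 to 91.3 and 95.6 CPM) and the AP-1 subunit Jun (8.4 and 10.0 to 49.9 and 52.9 CPM) followed. Their Rybp-/- to Rybp+/+ width ratios lay between 0.978 and 1.08. In the knockout Wnt7b, Igf2, Cyr61 and Jun were also higher (log2 fold change 0.93, 0.75, 0.94 and 0.28), while Nrp2 was at 97.2 and 95 CPM before and 93.9 and 96.7 CPM after.

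Of the falls, Gbx2, a STAT3-responsive pluripotency factor, went from 88.9 and 99.1 CPM to 27.5 and 27.7 CPM in shRybp ESCs (log2 fold change -1.77, SE 0.07, edgeR adjusted p 2.1e-13). It was barely expressed in the floxed line, at 3.96 and 4.02 CPM in Rybp+/+ and 4.04 and 4.17 CPM in Rybp-/-. The cell cycle regulator Cdk2ap1 (149.9 and 169.4 to 50.8 and 46.9 CPM), the phosphatase Ctdsp2 (168.6 and 182.1 to 61.3 and 62.7 CPM) and the RNA helicase Mov10 (102.9 and 99.7 to 38.0 and 39.4 CPM) fell as well. Rpl10 fell from 948.1 and 916.5 CPM to 253.8 and 234.7 CPM, and since ribosomal protein genes have many near-identical copies, this value is uncertain.

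Pluripotency genes at broad domains gave 4 higher and 9 lower of 19 in shRybp ESCs, where 26.8% and 26.0% of all genes tested were called and 45.2% of all genes at broad domains were lower. Esrrb went from 1119 and 1152 CPM to 842.2 and 852.5 CPM (log2 fold change -0.42, SE 0.04, adjusted p 3.2e-08). Signalling feedback genes gave 3 higher and 7 lower of 14, and Spry4 fell from 149.4 and 156.2 CPM to 82.3 and 83.5 CPM. Of 26 chromatin regulators 18 were lower, the knocked-down Rybp among them, and 3 higher, Ep300 and Mtf2 among the latter. Setd1b fell from 163.3 and 200.2 CPM to 91.7 and 89.8 CPM (adjusted p 1.0e-09), and Wdr5 itself from 372.4 and 363.5 CPM to 265.1 and 259.2 CPM. Growth genes gave 6 lower and 1 higher of 9, including Ccnd1 (215.5 and 217.5 to 126.1 and 118.4 CPM) and Myc (71.9 and 78.1 to 43.4 and 43.4 CPM). Developmental factors gave 16 higher and 10 lower of the 45 tested. In the same libraries fibroblast markers summed to between 18.6 and 18.8 CPM in shEV and between 30.6 and 31.9 CPM in shRybp, and primitive endoderm markers to between 6.63 and 9.94 CPM and between 17.5 and 19.1 CPM, and their part in these counts was not tested.

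WDR5 knockdown was read against the same shEV libraries, which were counted separately in its table. There they held 21241931 and 19731613 counts on genes with 14.7 and 14.4% of counts on no gene, against 41697967 and 38961268 counts with 22.8 and 22.1% in the shRybp table, a difference the sources used here do not explain. The 2 knockdowns are not independent, and their values are given side by side only. In shWdr5 ESCs 903 of 2361 tested genes at broad domains (38.2%) were higher and 779 (33.0%) lower, where 31.5% of all genes tested were higher and 31.5% lower. With an absolute log2 fold change above 1 there were 193 higher (8.18%) and 116 lower (4.91%), against 10.9% and 7.69% of all genes tested. The median log2 fold change was 0.04 (all genes -0.01). Genes whose domain held a WDR5 peak were higher in 37.8% and lower in 33.4%, and genes of domains without one in 43.5% and 27.6%. The genes without one were few (170 tested) and less expressed, with a median of 6.87 RPKM in shEV against 17.7 RPKM. This comparison was not matched for level. Mostly RING1B-covered domains gave 46.2% higher and 27.3% lower, and those without RING1B 36.0% and 34.6%.

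Wnt3, a WNT ligand that marks the onset of gastrulation, was at 0.702 and 0.606 CPM in shEV and 13.2 and 11.8 CPM in shWdr5 ESCs (log2 fold change 4.24, SE 0.21, edgeR adjusted p 4.0e-14). Wnt9a went from 1.03 and 0.909 CPM to 11.2 and 12.9 CPM (log2 fold change 3.63, SE 0.20, adjusted p 2.2e-13). Sema6a (1.97 and 2.53 to 24.7 and 25.9 CPM), Zfp703 (3.09 and 3.13 to 29.3 and 29.2 CPM) and Sp9 (2.62 and 2.42 to 23.6 and 22.6 CPM) rose as well. All 5 domains were mostly under RING1B, and all 5 genes were under 5 CPM in both shEV libraries and passed the minimum through shWdr5. In shRybp ESCs, read against the same shEV libraries, their log2 fold changes were 2.88 (Wnt3), 2.88 (Wnt9a), 2.36 (Sema6a), 2.1 (Zfp703) and 1.89 (Sp9).

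The largest falls in shWdr5 ESCs were Tmem121 (12.6 and 12.6 to 1.77 and 2.01 CPM), Wdr5 itself (log2 fold change -2.55, SE 0.05, edgeR adjusted p 4.7e-21), the fatty acid desaturase Scd2 (366.4 and 377.8 to 64.9 and 65.2 CPM), Gbx2 (83.7 and 91.6 to 14.6 and 16.2 CPM) and Rpl7l1 (291.0 and 287.2 to 51.5 and 51.2 CPM), the last with the same doubt on near-identical copies as Rpl10. Rybp rose from 80.0 and 81.1 CPM to 120.4 and 116.6 CPM (log2 fold change 0.56, adjusted p 3.8e-09). Otx2 rose from 34.9 and 34.6 CPM to 102.9 and 104.1 CPM, opposite to its fall in Rybp-/- ESCs. Pluripotency genes at broad domains gave 4 higher and 14 lower of 19, where 31.5% of all genes tested were called in each direction. Signalling feedback genes gave 4 and 8 of 14, chromatin regulators 9 and 10 of 26 (Wdr5 among the latter), growth genes 4 and 4 of 9 and developmental factors 22 and 11 of the 43 tested. Primitive endoderm markers rose from between 6.84 and 9.90 CPM to between 30.3 and 30.9 CPM in the same libraries (4 of 5 tested higher, 1 of the 6 at 0), and their part in the counts of developmental factors was not tested.

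**Figure D5:**
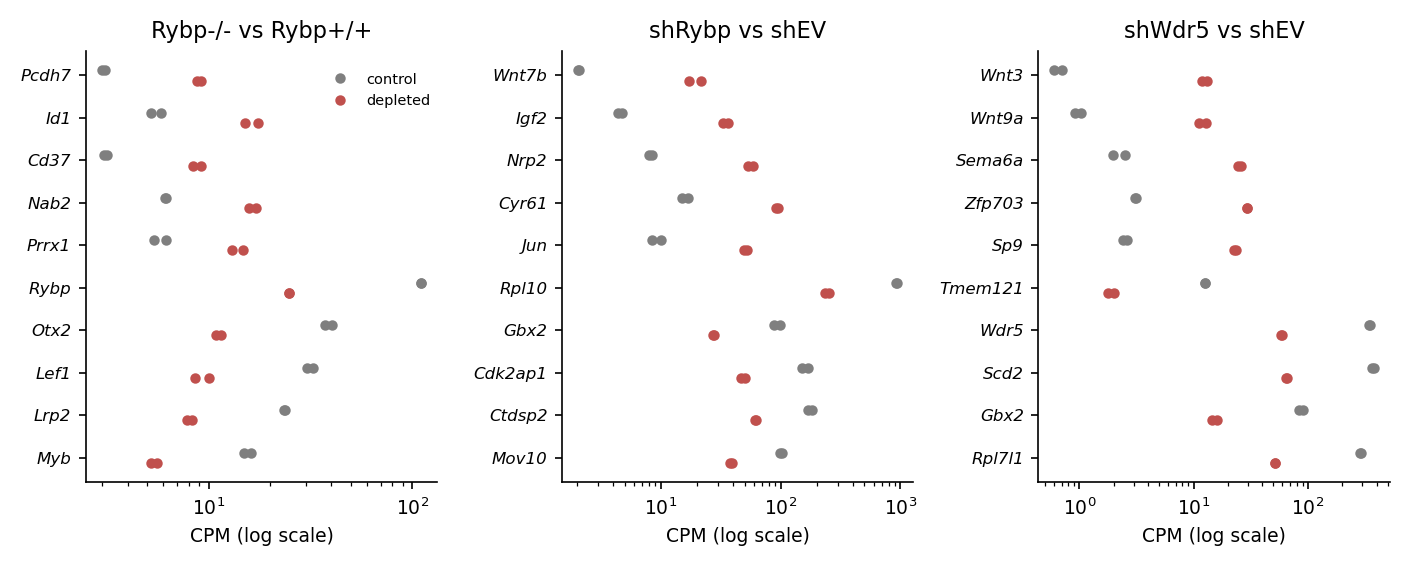
CPM (log scale) of the genes with the largest rises and falls at broad domains in Rybp-/-, shRybp and shWdr5 ESCs, with both control libraries in grey above both treated libraries for each gene. The genes were picked for their size of change, so the gap between the groups follows from the choice. Otx2, for example, is at 37.5 to 40.3 CPM in Rybp+/+ and 10.8 to 11.5 CPM in Rybp-/-.

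In the libraries labelled DOX of the rTRS line, 569 of 2382 tested genes at broad domains (23.9%) were higher and 661 (27.7%) lower, against 23.0% and 20.4% of all genes tested. With an absolute log2 fold change above 1 the direction turned, with 150 higher and 70 lower, where 7.7% and 4.28% of all genes tested were called. At domains of 6 kb or more 36.3% were lower, and at domains mostly under RING1B 40.3% were higher and 13.0% lower. Pluripotency genes at broad domains gave 16 lower of 19, and the other 3 (Nanog, Otx2 and Zfp281) did not pass the test. The 7 ESC markers summed to 5720 and 5953 CPM in NTC and to 3469 and 3663 CPM in these libraries. Esrrb went from 747.6 and 755.4 CPM to 386.9 and 380.7 CPM (log2 fold change -0.97, SE 0.05, edgeR adjusted p 2.0e-08). Spry4 fell from 154.3 and 169.1 CPM to 20.6 and 21.4 CPM (log2 fold change -2.94, adjusted p 4.3e-11), and Socs3, a STAT3 target, from 283.7 and 249.5 CPM to 84.6 and 81.0 CPM. Since Rybp was not higher in these libraries and Stat3 rose only from 158.9 and 172.2 CPM to 191.4 and 188.0 CPM, these values describe the libraries labelled DOX and not a known dose of either gene.

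Genes of the 12 widest domains rose at some and fell at others in Rybp-/- ESCs, such as Mllt6 (99.99 and 105.0 to 120.4 and 123.8 CPM) and Slc2a1 (597.6 and 601.3 to 520.8 and 507.5 CPM). In the Ctbp2/Fgfr2 domain, with a width ratio of 0.527, Fgfr2 was at 31.3 and 29.6 CPM in Rybp+/+ and 31.2 and 33.5 CPM in Rybp-/- ESCs (log2 fold change 0.09, SE 0.06, edgeR adjusted p 0.21), and Ctbp2 at 242.5 and 245.7 CPM against 228.5 and 233.4 CPM (adjusted p 0.061). RNA was counted per gene, so the Fgfr2 values need not come from the transcript that starts in this domain. In the Ndufa4l2/Shmt2/Stac3 domain Ndufa4l2 fell from 62.9 and 65.5 CPM to 43.0 and 39.4 CPM and Shmt2 from 209.9 and 225.5 CPM to 188.1 and 180.6 CPM (log2 fold change -0.63 and -0.23), and Stac3 was low and fell from 1.23 and 1.24 CPM to 0.603 and 0.479 CPM (adjusted p 0.0040). Klf3, whose interval shortened to 6678 bp, was at 64.3 and 66.2 CPM before and 62.7 and 61.0 CPM after (adjusted p 0.20). Phc1, a PRC1 subunit, fell from 654.3 and 664.6 CPM to 487.3 and 479.8 CPM (log2 fold change -0.44, adjusted p 1.8e-14) while its domain went from 10163 to 6867 bp. Over all members, genes of domains with a width ratio under 0.75 were lower in 36.1% and higher in 26.5% in Rybp-/- ESCs, those with a ratio of 0.75 to 1 in 32.0% and 21.3%, and those with a ratio of 1 or more in 22.1% and 30.7%. This is a description across genes, which are not replicates, and the classes also differ in RING1B coverage, as given above.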

How the data were processed

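Peak lists and RNA counts of mouse ESCs were used as deposited. Per the study's methods, the authors trimmed ChIP-seq reads, aligned them to mm9, removed duplicates and ran MACS2 with input as background. Replicate files were merged, but whether before peaks were called is not stated, and the deposited lists give each interval's fold enrichment over background, a ratio. The deposited lists also give the −log10 q of each interval, which goes down to 1.34 in the Rybp+/+ H3K4me3 list. This is looser than the false discovery rate threshold for peaks that the study's methods state. Per the study's methods and the labels, the authors aligned RNA-seq reads with STAR to mm9 and counted them per gene with HTSeq, and the deposited count tables are not normalized. The setting of strand in counting is not given in the sources used here. Rows of the tables that name no gene (13.7 to 26.5% of counts) were left out.

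Overlap meant at least 1 bp. Genes and start sites came from GENCODE vM1 on the mm9 genome. A gene belonged to a domain when the TSS of any of its annotated transcripts lay in it. Sequences were read from that genome, avoiding annotated exons. Shares carry 95% Wilson intervals, which cover counting error only. Counts were tested with edgeR 4.0.16 in R 4.3.3 (TMM, filterByExpr, quasi-likelihood, Benjamini-Hochberg), each table by itself, after a test on simulated data. RPKM used the gene length of each table. 1 column of the rTRS table carried another prefix and was taken as DOX replicate 2 by the rest of its name, and 12 count columns not matched to a sample were not used. The named items were the 12 widest domains, the 5 lowest and 5 highest width ratios, the 5 largest rises and falls per comparison with a mean of at least 5 CPM, and from each list the members in the widest domains. Members and lists were chosen with earlier results of these data known. Alternatives were DESeq2 1.42.0, RLE size factors, no filter, leaving out each replicate, a replicate block, fold and width thresholds, gene bodies, intervals with a stricter q, a larger overlap, joined gaps and other peak lists. Some of the named items and their sequences are not reported here.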

Additional observations from a re-analysis of the deposited data

How the results depend on the processing

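Of 91 alternatives run, 70 left the result within its error or 1.5 times its count and 21 moved it. With an absolute log2 fold change above 1, the genes called at broad domains were 68 in Rybp-/-, 181 in shRybp, 309 in shWdr5 and 220 in the libraries labelled DOX, and calls that were lower became the minority in Rybp-/-, shRybp and the libraries labelled DOX, as they were over all genes tested (211 lower and 1119 higher, 202 and 1886, and 698 and 1255). With domains of 5 kb or more there were 643, 783, 826 and 620 calls, since fewer genes were counted. At 5 kb or more, 91.1% of domains were 4 kb or more in Rybp-/-, and WDR5 overlapped 90.1% and H3K27ac 93.1%. With a −log10 q of at least 5 the shares were 80.8% for WDR5, 89.3% for H3K27ac, 41.2% for RING1B and 7.12% for STAT3, since fewer peaks were searched. The Rybp-/- H3K27ac list gave 92.3%, the Tet.Rybp.Stat3 DOX- RING1B list 87.2% and the DOX- STAT3 list 23.4%. The cause of these last shifts was not tested. With the class mostly under RING1B taken from the DOX- list (535 domains), chosen after seeing the data, 40.2% of its genes were higher and 24.7% lower in shRybp, and in Rybp-/- 29.9% were higher and 27.6% lower.

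Leaving out each replicate in turn gave 1037 to 1277 calls in Rybp-/-, 1344 to 1582 in shRybp, 1475 to 1651 in shWdr5 and 1049 to 1152 in the libraries labelled DOX, the lone library being assumed to vary like the other group. With the replicate number as a replicate block the counts were 1293, 1677, 1761 and 1546, against 1316, 1599, 1682 and 1230 without it. Same-numbered libraries deviated together with correlations of -8.1e-05, 0.031, 0.044 and 0.20, and the labels give the numbers no shared batch, so they were not treated as pairs. Comparisons of the TF-AA mutation, the RYBP phase disruption and the Tet.RYBP line could not be run, because their columns could not be matched to samples. Depth limits the peak results, since it is unknown for every list.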
